A study of Mus musculus with 16 samples.

Results

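The genes described here are 36 genes of skeletal muscle, which encode the contractile filaments, the Z-disc and scaffold proteins, the calcium-handling proteins and the energy enzymes of the muscle fibre. They were taken by symbol from a table of 46078 genes, in which all 36 were found, and 33 of them passed the filter on low counts. Myh7, Myl3 and Tnnc2 did not pass it and are given by their levels alone. The other 33 include genes that passed only because a few libraries were high, so their counts and medians are given as descriptions.

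RNA of tumours grown from B16F10-GP cells, a mouse melanoma line, was measured in 16 libraries, 4 in each of 4 groups. The cells had been implanted on the flanks, in 25% Matrigel, of female C57BL/6 mice 6 to 8 weeks old. Mice of the first group are labelled untreated, where the protocol speaks of vehicle. The second group had 5 Gy of X-rays once, to the right flank, on day 10. The third had the drug QH-II-066 (a code name) injected into the abdomen at 10 mg/kg daily, starting on day 10 and lasting 7 days. Combined treatment meant the same irradiation in the morning and a first injection in the evening. The labels do not say which flank the RNA came from, nor that libraries come from separate mice, so p-values reflect the scatter of these libraries, part of which may be technical.

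A skeletal muscle fibre shortens when thick filaments of myosin pull on thin filaments of actin, whose access is set by tropomyosin and the troponins under the control of calcium. Fast and slow fibres use different genes for many of the same parts, among them the myosin heavy and light chains, the troponins and the calcium pump of the sarcoplasmic reticulum. In mouse skin a thin sheet of muscle, the panniculus carnosus, lies under the dermis, and the body wall beneath it is muscle too, while melanoma cells are not known for assembling sarcomeres.

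The starts of 4 members are shown because their levels set the main contrasts below: Acta1, the skeletal actin, the neighbouring fast heavy chains Myh4 and Myh1, and Myh7, the slow heavy chain. Each run is the 250 bases before an annotated start (RefSeq, GRCm38.p6), 5′ to 3′ on the strand of the gene, with matches to the E-box CANNTG, the MEF2 motif and the CArG box in capitals.
Acta1, chr8:123894776-123895025, minus strand: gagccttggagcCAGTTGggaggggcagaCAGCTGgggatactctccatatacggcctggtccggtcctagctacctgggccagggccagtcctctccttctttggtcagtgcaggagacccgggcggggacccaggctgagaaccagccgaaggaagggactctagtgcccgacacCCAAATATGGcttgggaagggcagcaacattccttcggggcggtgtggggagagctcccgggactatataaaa
Myh4, chr11:67237562-67237811, plus strand: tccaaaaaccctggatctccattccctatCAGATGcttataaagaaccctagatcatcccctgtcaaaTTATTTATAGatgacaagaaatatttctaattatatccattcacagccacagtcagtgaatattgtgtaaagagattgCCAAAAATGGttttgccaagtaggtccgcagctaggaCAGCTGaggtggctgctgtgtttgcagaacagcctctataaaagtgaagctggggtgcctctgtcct
Myh1, chr11:67199852-67200101, plus strand: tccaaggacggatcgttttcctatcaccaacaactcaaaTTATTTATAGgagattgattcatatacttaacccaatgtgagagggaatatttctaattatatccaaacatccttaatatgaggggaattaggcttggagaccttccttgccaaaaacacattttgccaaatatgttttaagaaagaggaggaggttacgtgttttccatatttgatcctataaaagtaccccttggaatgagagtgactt
Myh7, chr14:54994627-54994876, minus strand: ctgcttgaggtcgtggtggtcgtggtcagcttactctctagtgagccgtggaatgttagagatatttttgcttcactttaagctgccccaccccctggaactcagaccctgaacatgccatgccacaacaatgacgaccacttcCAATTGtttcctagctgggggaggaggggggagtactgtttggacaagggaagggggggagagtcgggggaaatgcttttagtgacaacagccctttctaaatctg
Acta1 held 2 E-boxes, one of them CAGCTG, and a CArG box. Myh4 held 2 E-boxes, a MEF2 motif and a CArG box, Myh1 a MEF2 motif and Myh7 a single E-box. The RefSeq table had 34 starts for 28 of the 36 genes. CANNTG was found in 30 of these 34 windows (88.2%), against 66.2% of 32851 windows of all genes. CAGCTG, which is one form of CANNTG, was found in 16 of 34 (47.1%) against 13%. The MEF2 motif was found in 6 (17.6%, against 2.92%), before Myh1, Myh4, Ttn, Xirp2, Pvalb and Pgam2, and the CArG box in 3 (8.82%, against 1.47%), before Myh4, Myl3 and Acta1. All these motifs read the same on both strands. A match says only that the letters are there.

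Total counts were 6994198 (combined replicate 4) to 40799942 fragments, and a count of 0, taken as under 3 fragments, allowed up to 0.429 CPM in the shallowest library and 0.0735 CPM in the deepest. CPM is a count scaled to the TMM-adjusted library size, and FPKM divides it by exon length in kilobases. The melanoma label held against its markers, as the pigment genes Dct, Tyrp1 and Pmel stood at 2073 CPM or more in every library. Skin transcripts were abundant in some tumours and scarce in others. Krt5, Krt10 and Krt14, keratins of the epidermis, summed to 170 to 1932 CPM in 5 libraries (5 Gy replicates 2 and 4, combined replicates 2, 3 and 4) and to 3.97 CPM or less in the other 11, called tumours without keratin below. QH-II-066 replicate 4 stood apart in another way, with muscle transcripts and almost no keratin. Combined replicate 1, counted here as without keratin, summed to 40.0 CPM over a wider list of 20 skin genes, against 9.31 to 13.2 CPM in untreated tumours.

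Muscle transcripts varied widely between tumours of the same group. Of the 36 genes, 24 were highest in 5 Gy replicate 2 and 4 in 5 Gy replicate 4, while 3 were highest in QH-II-066 replicate 4, 3 in untreated replicate 3, 1 in QH-II-066 replicate 1 and 1 in combined replicate 4. The same 5 libraries were the 5 highest for 26 of the 36, namely 5 Gy replicates 2 and 4, combined replicates 3 and 4 and QH-II-066 replicate 4. The exceptions were the slow forms Myh7, Myl2, Myl3, Tnnt1, Tnni1 and Tnnc1, the fast troponin Tnnc2, and Tpm1, Eno3 and Xirp2. At least 1 library had no fragment of 14 of the 36. In bulk RNA, fewer muscle cells and less muscle RNA per cell cannot be told apart.

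**Figure D1:**
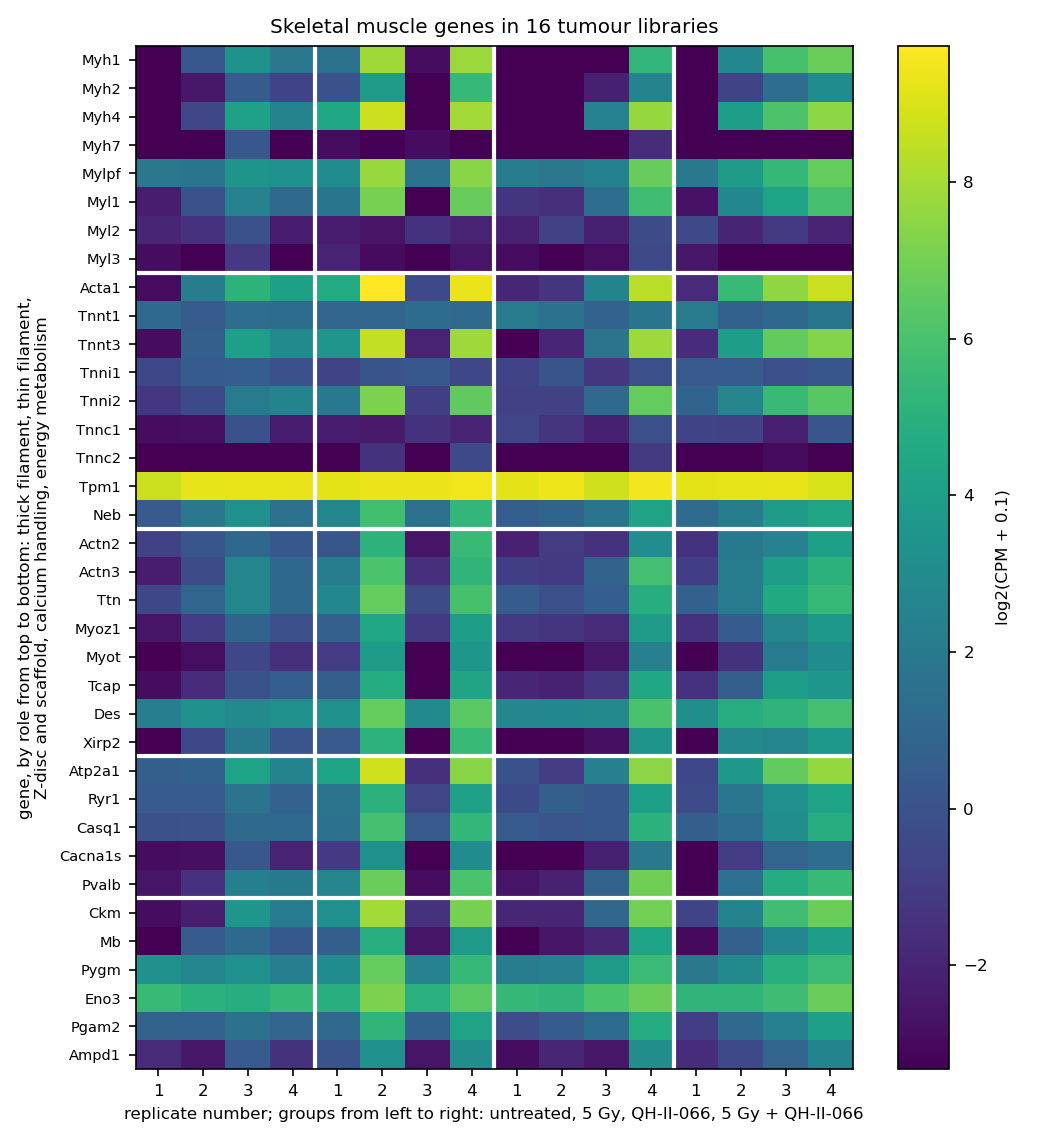
Level of the 36 muscle genes, as log2(CPM + 0.1), in rows grouped by role and columns for the 16 libraries grouped by treatment. In 26 rows the same 5 columns hold the highest values, whereas Tpm1 is high in every column (418 to 719 CPM).

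Within the thick filament, the fast forms carried nearly all of the signal. Values of a group are given in the order of its replicates 1 to 4 throughout. Myh4, the heavy chain of the fastest fibres, stood at 0, 0.577, 17.9 and 5.73 CPM in untreated tumours and 22.6, 413, 0 and 239.7 CPM after 5 Gy. It stood at 0, 0, 5.50 and 206 CPM with QH-II-066 alone and 0, 15.3, 69.2 and 186 CPM in combined tumours. Each group held at least 1 tumour without a fragment of Myh4, and the 4 groups overlapped. The group means were 6.05 ± 8.31 CPM untreated, 169 ± 195 CPM after 5 Gy, 53 ± 102 CPM after QH-II-066 and 67.7 ± 84.4 CPM combined (SD, n = 4 each). The fast heavy chains Myh2, Myh1 and Myh4 lie in that order on the plus strand of chromosome 11 (mm10), from 67171027 to 67260446. Myh1 reached 239 CPM and Myh2, the heavy chain of the fast oxidative fibres, 43.2 CPM.

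Myh7, the heavy chain of slow fibres and of the heart (minus strand of chromosome 14, 54970688 to 54994634), was nearly absent. There were 34 fragments in untreated replicate 3, 8 in QH-II-066 replicate 4, 1 in each of 5 Gy replicates 1 and 3, and 0 in the other 12 libraries. That is 1.09 CPM in untreated replicate 3 and 0.212 CPM in QH-II-066 replicate 4. The tumour with the most muscle RNA, 5 Gy replicate 2, had none beside 27264 fragments of Acta1. Relative to Acta1, untreated replicate 3 held 3.16 Myh7 fragments per 100 (95% Clopper-Pearson interval 2.18 to 4.44), and QH-II-066 replicate 4 held 0.0629. Such intervals cover counting error only.

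The light chains, which stiffen and tune the myosin neck, split the same way. Mylpf, the fast regulatory light chain, stood at 3.47, 3.27, 10.6 and 10.1 CPM in untreated tumours and 7.94, 210.2, 2.87 and 169 CPM after 5 Gy. After QH-II-066 it stood at 4.48, 3.51, 5.26 and 105 CPM, and in the combined group at 3.70, 14.2, 41.3 and 99.3 CPM. The 5 tumours with under 1 CPM of Acta1 kept 2.87 to 4.48 CPM of Mylpf, and the groups overlapped. Myl1, the fast essential light chain, ranged from 0 to 134 CPM. The slow forms Myl2 and Myl3 never passed 0.895 and 0.637 CPM, and their highest libraries were untreated replicate 3 for Myl2 and QH-II-066 replicate 4 for Myl3, both with almost no keratin.

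In the thin filament, Acta1 reached 596 FPKM in 5 Gy replicate 2, the highest level per length of the 36 genes. Acta1, the skeletal alpha-actin (minus strand of chromosome 8, 123891767 to 123894736), stood at 0.0334, 4.58, 34.4 and 17 CPM in untreated tumours and 25.3, 855, 0.641 and 652 CPM after 5 Gy. It stood at 0.165, 0.301, 5.78 and 338 CPM with QH-II-066 alone and 0.189, 45.9, 189 and 413 CPM in combined tumours. Every group held a tumour below 1 CPM, and the groups overlapped. Within the 5 Gy group alone the highest tumour had 1332 times the level of the lowest. Tnnt3, the fast troponin T that ties the troponin complex to tropomyosin, stood at 0.0334, 1.46, 16.7 and 7.49 CPM in untreated and 11.2, 371, 0.135 and 223 CPM in 5 Gy tumours. It stood at 0, 0.167, 3.15 and 229.7 CPM with QH-II-066 alone and 0.216, 15.1, 98.3 and 156 CPM in combined tumours, with the same tumours high as for Acta1. Tnni2, the fast inhibitory troponin, stood at 0.334, 0.654, 4.22 and 5.87 CPM untreated, 3.84, 145, 0.439 and 93 CPM after 5 Gy, 0.494, 0.468, 2.10 and 100.1 CPM after QH-II-066 and 1.73, 6.07, 45.7 and 81.7 CPM combined, again with all groups overlapping.

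The slow troponins did not follow. Tnnt1, the slow troponin T, stood at 2.07, 1.19, 2.46 and 2.39 CPM in untreated tumours and 1.81, 1.79, 2.33 and 2.17 CPM after 5 Gy. It stood at 3.95, 2.81, 1.62 and 3.29 CPM with QH-II-066 alone and 3.92, 1.57, 2.0 and 3.27 CPM in combined tumours, a narrow range in which tumours with and without fast muscle genes were mixed. Tnni1, the slow troponin I, stood at 0.601, 1.31, 1.41 and 0.809 CPM untreated, 0.534, 0.940, 1.11 and 0.577 CPM after 5 Gy, 0.527, 0.935, 0.323 and 0.796 CPM after QH-II-066 and 1.14, 1.25, 0.806 and 1.04 CPM combined. Here, too, 5 Gy replicate 2 was within the range of the tumours without fast muscle RNA. Tnnc1, the calcium-binding troponin of slow and cardiac muscle, stood at 0.0334, 0.0385, 0.863 and 0.106 CPM untreated, 0.107, 0.0940, 0.270 and 0.136 CPM after 5 Gy, 0.560, 0.301, 0.121 and 0.823 CPM after QH-II-066 and 0.541, 0.470, 0.119 and 1.04 CPM combined. Its levels were near the floor in most tumours.

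Tnnc2, the fast troponin C, was the exception among the fast forms. It had 9 and 19 fragments in 5 Gy replicates 2 and 4, 14 in QH-II-066 replicate 4, 1 in combined replicate 3 and 0 in the other 12 libraries. Its annotated exons share 592 of 800 bases (74.0%) with Ube2c on the opposite strand, and the counting gave no strand option. Whether this lowered its count was not tested. Exons of 15 members shared bases with another gene, over 20% in Tnnc2, Ckm (31.9%) and Atp2a1 (21.9%), so that their counts are less certain.

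Tpm1, a tropomyosin made in many cell types, was high throughout, at 418, 601, 639 and 638 CPM in untreated tumours, 597, 657, 663 and 696 CPM after 5 Gy, 588, 669, 446 and 719 CPM after QH-II-066 and 588, 605, 627 and 492 CPM combined. It made up 91.6% of the summed level of the 36 genes in 5 Gy replicate 3 and 14% in 5 Gy replicate 2. Sums below therefore leave it out, together with Eno3. Neb, the ruler of the thin filament, ranged from 1.24 to 54.2 CPM.

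**Figure D2:**
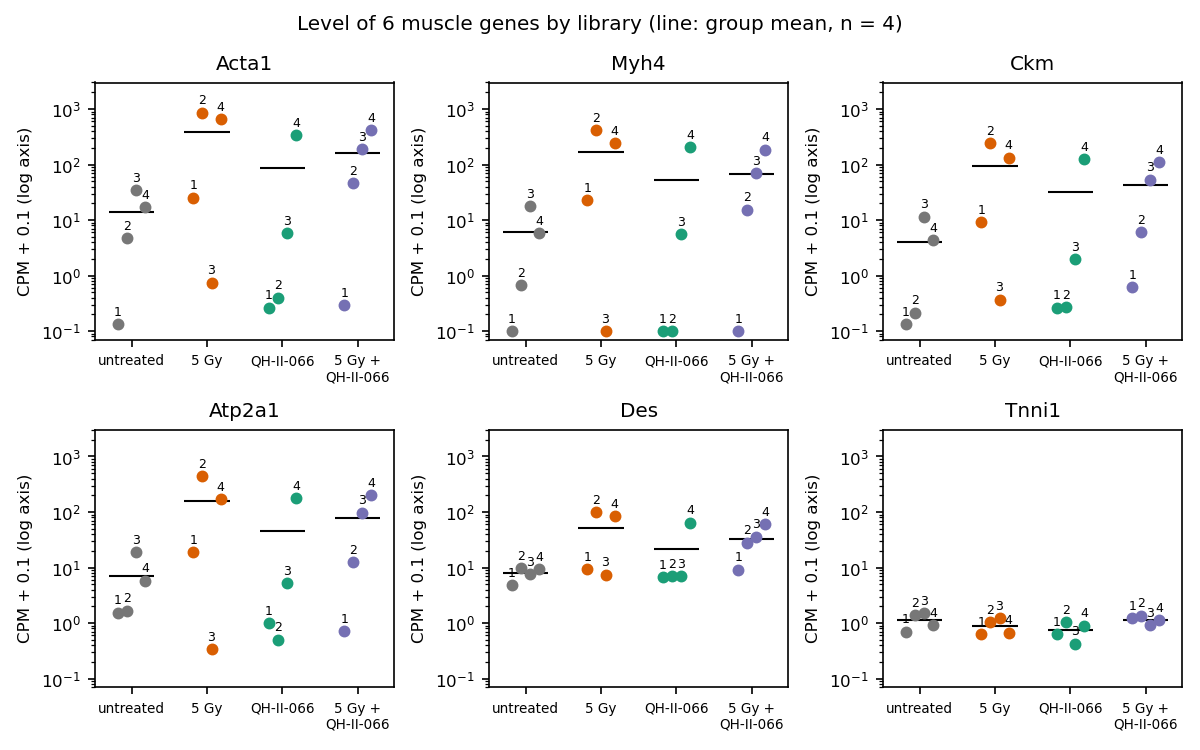
CPM + 0.1 on a log axis for Acta1, Myh4, Ckm, Atp2a1, Des and Tnni1 in each library, with the replicate number beside each point and a line at the group mean (n = 4). The fast genes span several orders of magnitude within a group, Des runs from 4.74 to 101 CPM, and Tnni1 stays between 0.323 and 1.41 CPM.

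Genes of the Z-disc and of the elastic scaffold were high in the same tumours as the fast filament genes, with a higher floor for Des. Des, the muscle intermediate filament, which smooth muscle makes too, stood at 4.74, 9.62, 7.51 and 9.15 CPM in untreated tumours and 9.25, 101, 7.36 and 84.5 CPM after 5 Gy. It stood at 6.56, 6.85, 6.91 and 64.1 CPM with QH-II-066 alone and 9.11, 27.9, 35.8 and 60.1 CPM in combined tumours. The tumours of the untreated, 5 Gy and QH-II-066 groups that were low in Acta1 kept within 4.74 to 9.62 CPM of Des. Ttn, the giant spring between Z-disc and M-band, stood at 0.601, 1.85, 6.27 and 2.0 CPM untreated, 6.65, 102, 0.709 and 61 CPM after 5 Gy, 1.29, 0.801, 1.42 and 27.8 CPM after QH-II-066 and 1.51, 4.23, 24.1 and 43.2 CPM combined. Xirp2, an actin-binding repeat protein of the fibre, stood at 0, 0.615, 3.77 and 0.985 CPM untreated, 1.17, 34.5, 0 and 45.2 CPM after 5 Gy, 0, 0, 0.0404 and 10.9 CPM after QH-II-066 and 0, 6.94, 5.97 and 12.5 CPM combined. Unlike most members it was highest in 5 Gy replicate 4 and not in replicate 2. The alpha-actinins Actn2 and Actn3, which cross-link actin at the Z-disc, reached 45.7 and 65.5 CPM, and Myoz1, Myot and Tcap reached 21.9, 14 and 27.1 CPM.

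Calcium-handling genes followed the same tumours. Atp2a1, the calcium pump of fast fibres, stood at 1.44, 1.58, 18.7 and 5.73 CPM in untreated tumours and 18.7, 439.7, 0.236 and 172 CPM after 5 Gy. It stood at 0.890, 0.401, 5.14 and 179 CPM with QH-II-066 alone and 0.622, 12.5, 97.4 and 204 CPM in combined tumours, with overlap between all groups. Ryr1, the release channel, stood at 1.24, 1.23, 3.04 and 1.62 CPM untreated, 3.17, 33.1, 0.574 and 17.8 CPM after 5 Gy, 0.659, 1.47, 1.09 and 16.7 CPM after QH-II-066 and 0.703, 3.45, 9.19 and 19.2 CPM combined. Casq1, which stores calcium inside the reticulum, stood at 0.835, 0.923, 2.21 and 2.11 CPM untreated, 2.95, 59, 1.15 and 39.4 CPM after 5 Gy, 1.19, 1.0, 1.05 and 33.2 CPM after QH-II-066 and 1.43, 2.55, 8.30 and 27.8 CPM combined. In QH-II-066 tumours a single library, replicate 4, was far above the other 3 for all 3 genes. Pvalb, a soluble calcium buffer of fast fibres, reached 118 CPM there, its highest level, and Cacna1s, the voltage sensor, 9.25 CPM in 5 Gy replicate 2.

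Among the energy genes, those particular to muscle were highest in the same tumours as Acta1, and those with wider use had a floor. Ckm, the muscle creatine kinase, stood at 0.0334, 0.115, 11.4 and 4.29 CPM in untreated tumours and 9.18, 240.1, 0.270 and 134 CPM after 5 Gy. It stood at 0.165, 0.167, 1.86 and 124 CPM with QH-II-066 alone and 0.514, 5.92, 53.5 and 111 CPM in combined tumours, again with a tumour under 1 CPM in every group. Mb, the oxygen store myoglobin, stood at 0, 1.27, 2.08 and 1.13 CPM untreated, 1.42, 29.5, 0.0675 and 13 CPM after 5 Gy, 0, 0.0668, 0.162 and 18.8 CPM after QH-II-066 and 0.0270, 1.53, 6.80 and 15.9 CPM combined. Its highest value came again from 5 Gy replicate 2. Ckm and Mb parted in untreated replicate 2. There they had 2.52 (0.513 to 7.55) and 27.7 (18.3 to 41.1) fragments per 100 of Acta1, on 3 and 33 fragments. In 5 Gy replicate 2 they had 28.1 and 3.45 per 100. Pygm, the muscle glycogen phosphorylase, ranged from 3.60 to 100.4 CPM. Eno3, the muscle enolase, ranged from 27.6 to 144 CPM, and Pgam2 and Ampd1 reached 36.6 and 9.50 CPM.

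Fast forms outweighed slow ones wherever muscle RNA was abundant, with a few pairs apart. Levels of partner genes were compared per length, as FPKM. The RNA was prepared by transcriptome capture and counted with no option for multi-mapping, so a ratio between genes may also reflect capture or mapping. This was not tested. Mylpf was above Myl2 in 16 of 16 libraries, Casq1 above Casq2 in 16, Tnni2 above Tnni1 in 15, Myl1 above Myl3 in 14 and Actn3 above Actn2 in 14. Myh4 was above Myh7 in 11, with both at 0 in 4, and Tnnt3 above Tnnt1 in 11. The median log2 ratio of fast to slow FPKM (0.5 fragments added to each count) was 8.74 for the heavy chains, 6.75 for the regulatory and 5.45 for the essential light chains. It was 3.71 for troponin I, 2.79 for troponin T, 2.34 for calsequestrin and 1.30 for alpha-actinin. Actn2 is known as a form of all fibre types, and Actn3 as one of fast fibres.

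The calcium pump and troponin C went the other way. Atp2a2, the pump of slow fibres, of the heart and of many other cells, was above Atp2a1 per length in 13 of 16 libraries, with a median log2 ratio of fast to slow of -4.49. It kept to 242 to 608 CPM with and without muscle. Atp2a1 was the higher only in 5 Gy replicate 2, combined replicate 4 and QH-II-066 replicate 4, at 126, 58.5 and 51.3 FPKM against 72.7, 41.9 and 50.05 FPKM. Tnnc2 was above Tnnc1 in 2 libraries, 5 Gy replicates 2 and 4. In troponin T the order depended on the tumour. Tnnt3 made up 99.7% of the pair per length in 5 Gy replicate 2 and 8.04% (95% Clopper-Pearson interval 3.57 to 15.03) in combined replicate 1.

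The balance among the fast heavy chains differed between tumours. The same limit of capture and mapping holds for the size of these shares. Per length, Myh4 made up 64.6% of Myh4 and Myh1 together in 5 Gy replicate 2 (95% Clopper-Pearson interval 64.0 to 65.2) and 53.3% (52.5 to 54.2) in 5 Gy replicate 4. In the combined group it made up 70.2% in replicate 2, 54.6% in replicate 3 and 63.8% in replicate 4. It made up 85.0% (84.2 to 85.7) in QH-II-066 replicate 4 and 89.1% (86.6 to 91.2) in 5 Gy replicate 1. These last tumours, with keratin sums of 0.425 and 0.463 CPM, were above every tumour with keratin in this share. The untreated tumours with at least 20 fragments of this pair, also without keratin, were not. Untreated replicates 3 and 4 were at 65.1% and 63.0%, and untreated replicate 2 had the lowest share of all, 36.1% (21.9 to 52.3), on 28 Myh1 and 15 Myh4 fragments. QH-II-066 replicate 3, without keratin, was above every tumour with keratin too. It was at 100% (97.5 to 100), on 136 Myh4 and 0 Myh1 fragments. Myh2 made up 13.2% (12.5 to 13.9) of Myh2 and Myh4 in 5 Gy replicate 4, against 1.83% to 7.20% in the other libraries with at least 20 fragments of that pair.

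**Figure D3:**
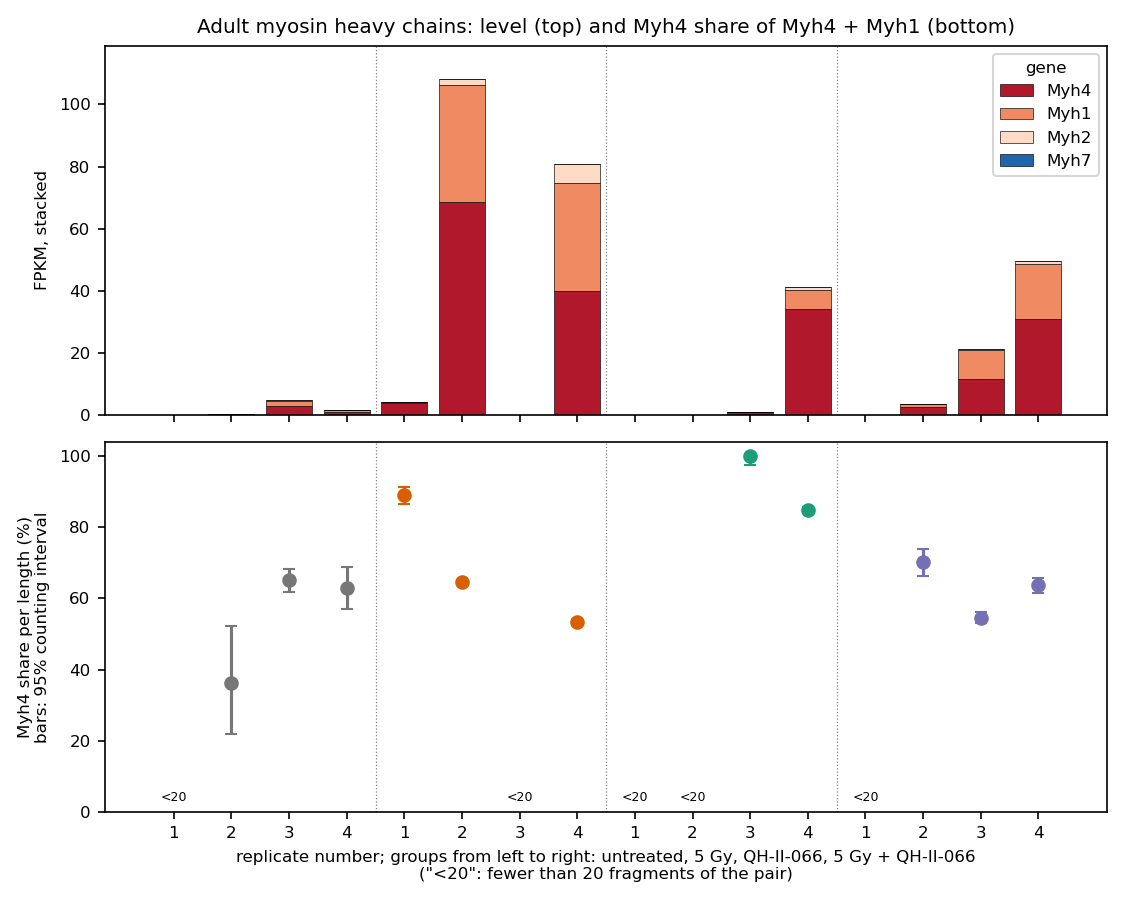
Top, FPKM of Myh4, Myh1, Myh2 and Myh7 stacked for each library. Bottom, Myh4 as a percentage of Myh4 and Myh1 per length, with 95% Clopper-Pearson intervals. Myh7 is hardly visible. QH-II-066 replicates 3 (100%) and 4 (85.0%) and 5 Gy replicate 1 (89.1%) have a larger Myh4 share than the 5 libraries with keratin (53.3% to 70.2%). Untreated replicate 2 has the smallest share (36.1%).

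Muscle and skin transcripts came together in some tumours and apart in others. The summed level of 34 muscle genes (without Tpm1 and Eno3) was 3905 CPM beside 1932 CPM of Krt5, Krt10 and Krt14 in 5 Gy replicate 2, and 2627 beside 1404 CPM in 5 Gy replicate 4. It was 1838 beside 900.1 CPM in combined replicate 4 and 897 beside 170 CPM in combined replicate 3. These 4 tumours held 2.02, 1.87, 2.04 and 5.28 units of muscle for each unit of keratin. Combined replicate 2 was the reverse, with 208 CPM of muscle beside 635 CPM of keratin, a ratio of 0.327. QH-II-066 replicate 4 held 1888 CPM of muscle beside 0.425 CPM of keratin. Among tumours without keratin, untreated replicates 3 and 4 and 5 Gy replicate 1 held 203, 102 and 166 CPM of muscle. The 7 others held 29.0 to 67.8 CPM. High muscle sums were found with keratin and, in 1 tumour, without it.

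**Figure D4:**
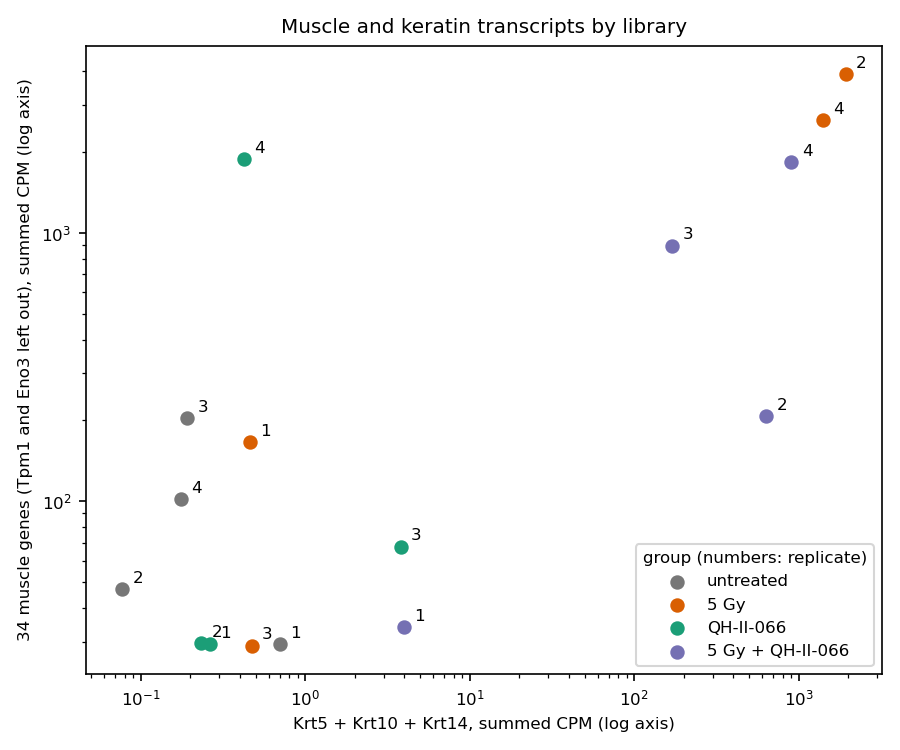
Summed CPM of 34 muscle genes against summed CPM of Krt5, Krt10 and Krt14, both on log axes, one point per library with its replicate number. QH-II-066 replicate 4 lies alone at 1888 CPM of muscle and 0.425 CPM of keratin, and combined replicate 2 has the most keratin for its muscle.

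The treatment comparisons asked whether radiation, the drug or both changed these genes. edgeR called no muscle gene in any of the 6 comparisons. The mean log2 CPM over the 33 tested genes was 0.66 ± 1.45 for untreated tumours, 2.82 ± 2.99 for 5 Gy, 0.88 ± 2.63 for the drug and 2.42 ± 2.32 for both (SD, n = 4 each), and the ranges of the 4 groups overlapped. The distance of 5 Gy from untreated tumours was larger than the untreated SD and smaller than the 5 Gy SD. After 5 Gy, edgeR's quasi-likelihood test (Benjamini-Hochberg adjusted p under 0.05) called 0 of the 33 tested muscle genes higher, where it called 1.25% of all 16101 tested genes, and 0 lower, where it called 0.00621%. At an unadjusted p under 0.05, 14 muscle genes were higher and 0 lower, against 12.3% and 2.81% of all genes. Leaving out untreated replicate 1, 2, 3 or 4 gave 2, 2, 13 and 3 of the 33 higher. The shares of all genes were then 10.3%, 11.4%, 10.5% and 12.5%. With 5 Gy replicate 1, 2, 3 or 4 left out instead, 18, 3, 22 and 4 of the 33 were higher. The shares of all genes were then 12.3%, 7.97%, 14% and 11.4%. DESeq2 called 3 of the 36 higher, with no adjusted p for 1 gene, against 6.31% of all genes with an adjusted p, and limma-voom with sample weights called 0, against 4.37%. The 4 irradiated libraries lay all above the untreated ones for 0 of the 33, against 5.97% of all genes, and all below for 0, against 3.13%.

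Fold changes after 5 Gy were large and had large errors. The median log2 fold change over the 33 was 3.82, against -0.08 over all genes, and 29 of 33 were above 0. The median standard error was 1.67, against 0.241 over all genes. Des had the smallest adjusted p, at 2.70 ± 0.98 with its SE (edgeR adjusted p = 0.175). Acta1 stood at 383 ± 436 CPM after 5 Gy and 14 ± 15.4 CPM untreated (SD, n = 4 each), which gave a log2 fold change with SE of 4.77 ± 2.46 (edgeR adjusted p = 0.394). Myh4 had 4.79 ± 2.50 and Ckm 4.58 ± 2.30. The 3 genes called by DESeq2 were Casq1 (log2 fold change 4.11, DESeq2 adjusted p = 0.0252), Ttn (4.02, 0.0420) and Mylpf (3.86, 0.0431), for which edgeR gave adjusted p of 0.189, 0.229 and 0.229. The 4 genes below 0 were the slow forms Myl2 (-1.31), Tnnc1 (-0.79), Tnni1 (-0.38) and Tnnt1 (-0.0042), none of which passed the test.

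The 5 Gy difference came from replicates 2 and 4 above all, the 2 with keratin. Leaving out the 5 libraries that held skin transcripts left 2 irradiated libraries. The median over the muscle genes was then -0.13. edgeR called 0, and 0 had an unadjusted p under 0.05, where 5.04% of all genes were higher. The 2 irradiated libraries left out were also the 2 highest of their group in muscle (3905 and 2627 CPM summed). The loss of the difference was therefore fixed in advance, and skin and muscle content cannot be told apart by it. Skin genes moved with the same libraries. After 5 Gy, 19 of 19 tested skin genes were higher at an unadjusted p under 0.05, against 12.3% of all genes. edgeR called 0 of them, against 1.25% of all genes called higher. The tested skin genes include some that passed the filter only because the libraries with keratin were high. The count of 19 is therefore a description, too. In 5 Gy replicates 1 and 3 the list of 20 skin genes summed to only 10.5 and 20.3 CPM. The list of 20 skin genes summed to 10.5 to 4252 CPM after 5 Gy and 9.31 to 13.2 CPM untreated, and Krt5 had 0 fragments in untreated replicates 2, 3 and 4. Fibroblast genes were called in 8 of 10 and summed to 1880.5 to 4000.3 CPM after 5 Gy against 456 to 779.6 CPM untreated, without overlap. Adipocyte genes were called in 0 of 10 and summed to 196 to 419.8 CPM against 29.7 to 149 CPM, also without overlap, and 2 of 7 tested smooth muscle genes, Acta2 and Tagln, were called. The share of 1.25% over all genes stands beside these counts too. Gene by gene, 10 of 10 fibroblast, 5 of 10 adipocyte and 3 of 7 smooth muscle genes were wholly higher, against 5.97% of all genes. Without 5 Gy replicate 2, or without untreated replicate 1, 2 or 3, edgeR called 0 genes of all, so that these fibroblast and smooth muscle calls were lost. Without 5 Gy replicate 4 or untreated replicate 4 it called 6 and 8 fibroblast genes and 0 smooth muscle genes. The part of these cell types in the muscle result was not tested.

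**Figure D5:**
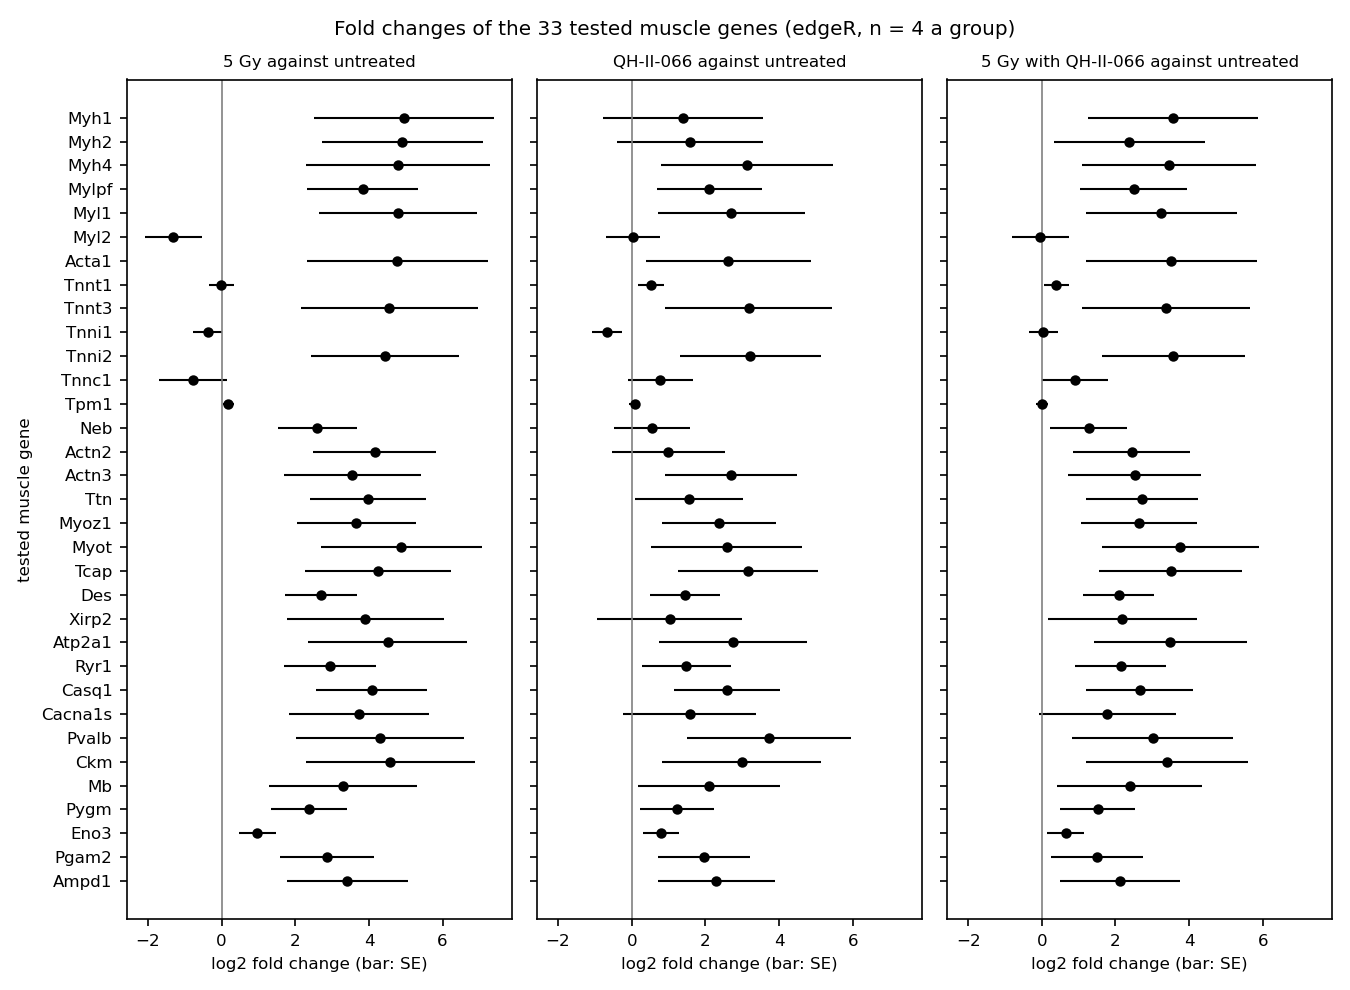
Log2 fold change with its SE for the 33 tested muscle genes against untreated tumours, for 5 Gy, QH-II-066 and both (edgeR, n = 4 a group). Most bars after 5 Gy lie right of 0 (median 3.82), with an SE of 1.67 in the median, and the slow forms Tnnt1, Tnni1, Myl2 and Tnnc1 lie near or left of 0.

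After QH-II-066 alone, 0 of 33 muscle genes were called higher or lower by edgeR, as were 0% of all genes in either direction. At an unadjusted p under 0.05, 0 muscle genes were higher or lower, against 3.14% and 5.03% of all genes, and DESeq2 called 0, against 0.0323% of all genes higher. The groups overlapped for all 33, where 1.37% of all genes were wholly higher and 1.55% wholly lower. Limma-voom with sample weights called 2 of 33 higher, a smaller share than the 11.6% of all genes it called higher. They were Tnnc1 (log2 fold change 2.43, voom adjusted p = 0.0339) and Tnnt1 (0.77, 0.0350). In edgeR these were 0.78 ± 0.87 and 0.52 ± 0.34 (SE; edgeR adjusted p = 0.684 and 0.553). The median over the 33 was 1.96, against 0.01 over all genes, and 32 were above 0. That median turned on replicate 4, the highest of its group in muscle. Without that library the median was -1.47, a fall that was fixed in advance. Acta1 had 2.62 ± 2.24 and Pvalb 3.72 ± 2.22, the largest of the 33.

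In the combined group against untreated tumours, edgeR called 0 of 33 higher or lower, as it did 0% of all genes. Des alone had an unadjusted p under 0.05 (2.08 ± 0.96, SE; edgeR adjusted p = 0.304), 1 of 33 against 7.44% of all genes higher, and 0 were lower, against 8.8%. DESeq2 and voom called 0, against 1.13% and 0% of all genes in either direction, and the groups overlapped for all 33 (2.53% of all genes wholly higher, 1.69% wholly lower). The median over the 33 was 2.44, against -0.0028 over all genes, and -1.48 without the libraries with skin transcripts, which left replicate 1 alone in that group. Replicate 1 was also the lowest of its group in muscle (33.9 CPM summed), so this fall, too, was fixed in advance. Acta1 had 3.52 ± 2.33 and Atp2a1 3.49 ± 2.07. These 3 comparisons share the same untreated libraries.

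Adding the drug to radiation gave 0 calls among the 33 by edgeR, DESeq2 and voom, where these called 0%, 0.914% and 0.522% of all genes. At an unadjusted p under 0.05, 0 were higher or lower, against 11.6% and 7.9% of all genes. The groups overlapped for all 33, against 4.45% and 3.97% of all genes wholly higher or lower. The median log2 difference between these groups was -1.18, against -0.06 over all genes, and Myh2 had the lowest value, -2.53 ± 1.97. The combined group against QH-II-066 gave 0 calls by the same 3 tools (DESeq2 0.265% and voom 0% of all genes), 0 at an unadjusted p under 0.05 in either direction (2.77% and 0.882% of all genes) and a median of 0.35 against -0.02 over all genes, which was 4.33 without QH-II-066 replicate 4. Without that library 22 of the 33 were higher at an unadjusted p under 0.05, against 2.51% of all genes, and edgeR called 0. That library was the highest of its group in muscle (1888 CPM summed, against 29.3 to 67.8 CPM), so this rise was fixed in advance. Again the groups overlapped for all 33, against 1.29% and 0.621% of all genes wholly higher or lower. The interaction, the drug's log2 difference with radiation minus that without, gave 0 calls by the 3 tools (DESeq2 0.36% and voom 3.06% of all genes) and 0 at an unadjusted p under 0.05 by edgeR, against 1.56% of all genes above 0 and 5.4% below. Its median was -3.39 against 0.03 over all genes, and 0.61 without QH-II-066 replicate 4. edgeR called 0% of all genes in both.

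Other genes of muscle varied by list after 5 Gy, and the lists were not tested against each other. Over all tested genes edgeR called 1.25% higher and 0.00621% lower. At an unadjusted p under 0.05, 12.3% were higher and 2.81% lower. Of 29 tested among 30 other sarcomere and fibre genes, 0 were called after 5 Gy and 18 had an unadjusted p under 0.05 and were higher, with a median log2 fold change of 3.37. Of 14 tested calcium-handling genes, 0 were called and 9 were higher at that unadjusted threshold (median 2.44), and of 18 other metabolic genes 0 and 5 (median 0.73). DESeq2 and voom counts were not taken over these lists. The 3 most abundant of each list, Tpm3, Cryab and Tpm2, then Atp2a2, Asph and Jph2, and Aldoa, Ldha and Hk2, include genes that other cells make in quantity. Tpm2, the beta-tropomyosin, reached 234 CPM in 5 Gy replicate 2 from 3.51 CPM in untreated replicate 1, while Cryab, a small heat shock protein, kept to 217 to 371 CPM. Of 5 tested developmental and cardiac forms 0 were called and 0 had an unadjusted p under 0.05 (median 0.16). Of 7 tested myogenic regulators and satellite cell genes 0 were called and 1 was higher at that threshold (median 0.33), and of 6 tested genes of the neuromuscular junction 0 were called, with 1 higher and 1 lower (median 0.45). For both lists, 1 gene higher is close to the share of 12.3% over all genes. Of all 12 developmental and cardiac forms, 7 stayed below 1 CPM in every library. Myf5 and Pax7, markers of muscle stem cells, never passed 0.102 CPM.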

How the data were processed

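Tumour RNA was prepared by transcriptome capture on an Illumina HiSeq2500, per the labels' protocols. The submitters' processing notes name STAR 2.4.1a, featureCounts, edgeR and mm10. Read pairs were counted, per the file headers, with featureCounts 1.6.0 over exons with no option for strand, multi-mapping or overlapping genes. The deposited table holds raw counts of fragments for each gene. The other column used, exon length in bases, was also deposited by the authors. Symbols were found for 45143 of 46078 gene IDs. Coordinates are those of mm10, counted from 1.

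The 36 muscle genes, their roles, the 9 pairs of fast and slow genes and the 11 other lists (other sarcomere and fibre, calcium-handling and muscle metabolism genes, developmental and cardiac forms, myogenic regulators and satellite cells, neuromuscular junction, smooth muscle, skin epithelium, adipocyte, fibroblast and matrix, melanocyte) were chosen with earlier results of these data known. Full values per library were given for a fixed set of 14 muscle genes and for others that a tool called, and the rest by range.

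edgeR 4.0.16 (R 4.3.3) fitted 1 model of 4 group means to the counts of 16 libraries, with filterByExpr (16101 genes tested), TMM and the robust quasi-likelihood F test, two-sided, Benjamini-Hochberg adjusted over all tested genes, threshold 0.05. CPM (TMM-scaled) and FPKM were computed here. Fast to slow ratios had 0.5 fragments added to each count, and intervals are 95% Clopper-Pearson. The pipeline was tested on simulated data. Alternatives were RLE scaling, DESeq2 1.42.0, limma-voom (limma 3.58.1) with sample weights, no filter, a filter of 1 CPM in 4 libraries, only the groups compared, a block for the replicate number, the skin genes' mean as a covariate, leaving out the 5 libraries that held skin transcripts, each library left out, a median over genes, prior count 0.5 and an offset of 2 fragments. Promoters came from RefSeq windows cut to the 250 bases before each start. No library was left out of the main comparisons.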

Additional observations from a re-analysis of the deposited data

Results flagged for a closer look

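Each value below is the gap between the most extreme library of a group and its nearest neighbour, as a fraction of the group's whole range of log2(CPM + 0.1). A library of 4 was set apart where this passed Dixon's 95% critical value. Of 144 groups tested, 19 passed, and chance passes about 1 in 20 groups. In 13 of the 19 the library was QH-II-066 replicate 4, above the other 3: Myh1 and Myh7 (1 each, since the others had no fragment), Tnnc2 (1), Des (0.977), Casq1 (0.955), Xirp2 (0.928), Myoz1 (0.891), Mylpf (0.883), Tcap (0.869), Myot (0.850), Ttn (0.849), Ampd1 (0.833) and Myl3 (0.830). These genes were counted on the same RNA, so the 13 are not independent.

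In untreated tumours, replicate 3 was high for Myh7 (1) and Pgam2 (0.858), and replicate 1 was low for Tpm1 (0.856), at 418 CPM. In the combined group, replicate 1 was high for Myl3 (1), on 3 fragments, and low for Xirp2 (0.849), and replicate 3 was high for Tnnc2 (1), on 1 fragment.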

How the results depend on the processing

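Across all alternatives edgeR called 0 of the muscle genes, including each fit that left out a library, while DESeq2 called 3 in 5 Gy against untreated and voom called 2 in QH-II-066 against untreated. Medians over the muscle genes moved as follows. For 5 Gy against untreated the median was -0.13 when the skin libraries were left out and -0.31 with the skin genes as a covariate. For the combined group against untreated these were -1.48 and -1.24, and against QH-II-066 -3.91 and -3.50. Leaving out the skin libraries left 1 combined library, assumed to vary like the others. In both irradiated groups the libraries left out were those highest in muscle, and the covariate was high in the same libraries. These shifts therefore cannot tell skin and muscle content apart. Leaving out 1 library at a time gave medians of -1.47 to 2.84 for QH-II-066 against untreated, -0.37 to 4.33 for the combined group against QH-II-066 and -4.17 to 0.61 for the interaction. The values -1.47, 4.33 and 0.61 came without QH-II-066 replicate 4. That library was the highest of its group in muscle, so the direction of these shifts was fixed in advance. The causes were not tested. The count of muscle genes higher after 5 Gy at an unadjusted p under 0.05 was 14 of 33 with edgeR, against 12.3% of all genes. It was 27 of 31 with only the groups compared (11.3% of all genes) and 23 of 36 by DESeq2 (8.49%). With no filter it was 9 of 36 (9.57%), and by voom 2 of 33 (12.9%). With 1 library left out it was 2 to 22 of 33, where 7.97% to 14% of all genes were higher. For the combined group against untreated the count was 1 of 33 in edgeR, against 7.44% of all genes. It was 11 of 31 with only the groups compared (5.76%) and 7 of 36 by DESeq2 (6.06%). Single genes in 5 Gy against untreated changed sign without the skin libraries for Acta1 (-0.12), Tnnt3 (-0.19), Tnni2 (-0.38), Mb (-0.59) and Xirp2 (-1.20). With the covariate they did so for Acta1 (-0.51), Tnnt3 (-0.53), Tnni2 (-0.58), Ckm (-0.12), Mb (-1.02), Ryr1 (-0.20) and Xirp2 (-1.59). Tnnt1, near 0, changed sign with RLE scaling (0.014), DESeq2 (0.012), voom (0.21), no filter (0.051), the stricter filter (0.0078), the compared groups alone (0.054), the replicate block (0.037), without the skin libraries (0.031) and with the covariate (0.18), and lay between -0.19 and 0.11 with 1 library left out. The log2 fold changes of the other named genes kept their sign. Same-numbered libraries did not deviate together (r from -0.43 to 0.48 over 24 pairs), and 4 of 16 libraries correlated best with their own number. The replicate block called 0 muscle genes in each comparison and 154 of all genes for 5 Gy against untreated, where the model without it called 203. Other counts over all genes in that comparison were 1235 by DESeq2, 790 by voom, 22 without the skin libraries, 13 with the covariate and 0 to 739 with 1 library left out. For QH-II-066 against untreated DESeq2 called 11 and voom 4622. For the other comparisons, in the order given, DESeq2 called 197, 145, 45 and 65 and voom 0, 84, 0 and 492, where edgeR called 0. Depth limits Myh7, Myl3 and Tnnc2, which most libraries counted at under 3 fragments.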

Other observations

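Several genes varied against Acta1 between the tumours with muscle. The genes in this section were singled out after their values were seen. Csrp3, a Z-disc protein of slow muscle and heart that fast muscle also makes under load, had 5.70 fragments per 100 of Acta1 in 5 Gy replicate 4 (95% Clopper-Pearson interval 5.35 to 6.05) and 7.44 (5.91 to 9.25) in combined replicate 2. It had 0.928 (0.817 to 1.05) in 5 Gy replicate 2 and 0.440 (0.332 to 0.572) in QH-II-066 replicate 4. Untreated replicate 4, without keratin, had 6.40 (4.30 to 9.21), on 31 fragments, and untreated replicate 2 had 3.36 (0.901 to 8.83), on 4. Untreated replicate 3 had 1.77, combined replicates 3 and 4 had 0.522 and 0.793, and 5 Gy replicate 1 and QH-II-066 replicate 3 had 0. 5 Gy replicate 4 was also the tumour with the largest Myh2 share and the highest Xirp2. Combined replicate 2 had 15.1 Xirp2 fragments per 100 of Acta1, against 4.04 in 5 Gy replicate 2.

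Mstn, the secreted inhibitor of muscle growth, stood at 0.591 (0.503 to 0.689) fragments per 100 of Acta1 in 5 Gy replicate 2, 0.385 in 5 Gy replicate 4, 0.917 in combined replicate 3 and 0.396 in combined replicate 4. QH-II-066 replicate 4 had 2 Mstn fragments beside 12722 of Acta1, 0.0157 per 100 (0.00190 to 0.0568). Untreated replicates 3 and 4 had 1 fragment each, 0.0929 (0.00235 to 0.519) and 0.207 (0.00522 to 1.16) per 100, intervals that reach the values of tumours with keratin. Combined replicate 2, with keratin and less muscle, had 0 beside 1170, an upper limit of 0.316. Pvalb stood at 35.03 (33.9 to 36.3) per 100 in QH-II-066 replicate 4, 29.4 (20.3 to 41.7) in QH-II-066 replicate 3 and 23.8 (20.01 to 28.2) in 5 Gy replicate 1. In untreated replicates 2, 3 and 4 it stood at 5.88, 14.4 and 22.3, and in the 5 tumours with keratin at 5.81 to 14.2, so that untreated replicates 2 and 3, without keratin, were no higher than the highest of these beyond counting error. Intervals cover counting error within a library, and no test across tumours was made.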
